A study of Mus musculus with 4 samples.

Results

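Netrin-1, its receptors and related guidance genes were examined in somatostatin-expressing (SST+) interneurons sorted from the embryonic mouse basal telencephalon. The set was fixed by gene name and comprised 10 of the 56883 genes in the deposited table, namely the ligands *Ntn1* and *Rgma*, the attractive or dual receptors *Dcc* and *Neo1*, the repulsive receptors *Unc5a*, *Unc5b*, *Unc5c* and *Unc5d*, and the Down syndrome cell adhesion molecules *Dscam* and *Dscaml1*. All 10 genes were present in the table. All 10 also passed the expression filter, set at an average of 10 normalized counts per library, which left 14323 genes for testing.

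The study compared 2 genotypes at embryonic day E14.5, with 2 RNA-seq libraries each. Control cells carried *Sst-Cre* and the tdTomato reporter (*Sst-Cre/tdTomato*), and *Dnmt1* KO cells carried in addition the floxed *Dnmt1* allele (*Sst-Cre/tdTomato/Dnmt1 loxP2*), so that Cre and the reporter were shared by both genotypes. The *Sst* locus drives Cre in SST+ cells after they leave the cell cycle, and deletion of *Dnmt1*, the maintenance DNA methyltransferase, is therefore restricted to these cells in the design. tdTomato-positive cells were isolated by fluorescence-activated cell sorting, and embryos on a C57BL/6J background were pooled without separating the sexes. Both libraries of a genotype were handled as separate samples of pooled embryos. The methods also give 50000 cells, pooled by genotype, as the source of the RNA. Whether an embryo gave cells to both libraries is not stated. The p-values thus measure the spread between pooled libraries and not between single embryos. If the libraries of a genotype shared a pool, that spread would be technical only.

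Netrin-1 is a secreted, laminin-related cue that guides axons and migrating neurons. DCC mediates attraction towards it, whereas UNC5 receptors mediate repulsion, alone or in a complex with DCC, and DCC and UNC5 proteins also act as dependence receptors that can trigger cell death when no ligand is bound. Neogenin, encoded by *Neo1*, is the closest relative of DCC and is also the receptor for RGMa, a membrane-anchored repulsive guidance molecule. DSCAM is an immunoglobulin superfamily adhesion molecule that has been described as a further netrin receptor, and DSCAML1 is its closest paralogue. In the ventral forebrain, interneurons born in the medial ganglionic eminence migrate tangentially through territories in which such cues are present.

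Most of these genes are long. Their spans in the GENCODE annotation of GRCm39 ranged from 44.4 kb for *Rgma* to 1097.5 kb for *Dcc*, and 7 of the 10 spanned at least 100 kb. *Dscam* (ENSMUSG00000050272) lies on the minus strand at chr16:96392040-96972145 and its transcript with the longest coding sequence has 33 exons. *Dscaml1* (ENSMUSG00000032087), on the plus strand at chr9:45337926-45665010, has 33 exons as well. *Ntn1* (ENSMUSG00000020902) lies on the minus strand at chr11:68100190-68291662 and has 7 exons, and *Unc5b* (ENSMUSG00000020099) lies on the minus strand at chr10:60598372-60667396 and has 17 exons.

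Because DNMT1 acts on CpG dinucleotides, the 250 bases upstream of the annotated start are shown for *Dscam* and *Unc5b*, the members called lower in *Dnmt1* KO. The start used is that of the transcript with the longest coding sequence. Both windows were read from GRCm39, are given 5′ to 3′ on the minus strand and have every CpG in capitals. Windows were read for 5 of the 10 members (*Neo1*, *Unc5a*, *Unc5b*, *Unc5c* and *Dscam*), which are listed in the RefSeq promoter table used to choose them. None of these windows lay whole within the RefSeq sequence of its gene.
*Dscam*, chr16:96972146-96972395: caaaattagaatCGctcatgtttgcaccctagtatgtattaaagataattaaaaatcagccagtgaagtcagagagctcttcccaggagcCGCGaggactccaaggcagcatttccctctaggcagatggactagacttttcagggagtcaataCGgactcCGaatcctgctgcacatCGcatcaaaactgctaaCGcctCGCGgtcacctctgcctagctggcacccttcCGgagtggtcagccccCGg
*Unc5b*, chr10:60667397-60667646: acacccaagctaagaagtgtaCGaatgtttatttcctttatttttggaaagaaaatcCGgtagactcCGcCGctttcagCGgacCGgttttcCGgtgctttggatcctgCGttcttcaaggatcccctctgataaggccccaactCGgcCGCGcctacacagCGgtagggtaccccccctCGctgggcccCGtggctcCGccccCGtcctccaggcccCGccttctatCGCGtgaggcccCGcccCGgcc
The *Dscam* window held 11 CpG dinucleotides, below the median of 13 over 12278 windows of the same length, and 60.3% of those windows held at least as many. The *Unc5b* window held 21, a number reached by 22.9% of the windows. CpG counts in the other listed members were 20 for *Unc5a* (reached by 25.8% of windows), 25 for *Neo1* (13.6%) and 28 for *Unc5c* (9.24%). The *Unc5a* window lay within the annotated span of its gene and the *Neo1* window partly so. The dinucleotide itself, searched as CG, which reads the same on both strands, was present in 98.8% of all windows. DNA methylation was not analysed here.

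The libraries held 6970247 to 8376711 recovered reads, of which 5.87% to 7.03% were mitochondrial. *Dnmt1* itself had normalized counts of 2238 and 2341 in control and 2164 and 2210 in *Dnmt1* KO libraries (log2 fold change -0.07, limma adjusted p = 0.461), a value summed over all exons that does not show whether the floxed exons were lost. Markers of medial ganglionic eminence-derived SST+ interneurons were present in every library, and 11 of 13 were higher and 0 lower in *Dnmt1* KO, with summed normalized counts of 24109 and 24110 against 35244 and 35925. Marker lists of other cells moved the other way. The marker counts cover the genes that passed the filter, whereas the sums cover every listed marker. Progenitor markers (8 of 10 lower, 1 higher) summed to 14283 and 14321 in control and 8930 and 9103 in *Dnmt1* KO, excitatory lineage markers (7 of 8 lower) to 2972 and 3029 against 1612 and 1456, striatal markers (6 of 8 lower, 1 higher) to 3539 and 3652 against 2592 and 2530, and blood markers (7 of 7 lower) to 2591 and 2400 against 576 and 590. Endothelial markers (6 of 6 lower) summed to 478 and 503 against 192 and 219, pericyte and fibroblast markers (4 of 5 lower) to 357 and 381 against 178 and 173, and microglial markers (1 of 3 lower) to 78.7 and 107 against 31.6 and 44.8. In none of these lists was a defining marker at 0 in all 4 libraries, and the part of these shifts in the results below was not tested. In such bulk libraries, fewer cells of a type and less RNA per cell cannot be told apart.

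To ask whether loss of *Dnmt1* was accompanied by altered expression of netrin signalling genes, normalized counts were compared between genotypes on the log2(normalized count + 1) scale with limma and Benjamini-Hochberg adjustment over all 14323 genes. Of the 10 genes, 2 (*Dscaml1* and *Ntn1*) were higher and 2 (*Dscam* and *Unc5b*) were lower in *Dnmt1* KO, and 6 did not pass the threshold of an adjusted p below 0.05. Over all genes tested, 8.30% were called higher and 8.99% lower. Among protein-coding genes with a span of at least 100 kb, the length class of 7 members, of which 2 were called higher and 1 lower, the shares were 18.5% higher and 10.2% lower. The median log2 fold change of the members was -0.033, beside -0.0033 over all genes tested and 0.060 over the long genes. The libraries of the genotypes did not overlap for 7 members, of which 3 were higher in *Dnmt1* KO (*Unc5c*, *Ntn1* and *Dscaml1*) and 4 were lower (*Unc5a*, *Unc5b*, *Unc5d* and *Dscam*). Such separation was frequent with 2 libraries per genotype, as 28.4% of all genes tested were separated with *Dnmt1* KO higher and 29.0% with *Dnmt1* KO lower. With 2 libraries against 2, the exact permutation test of any 1 gene cannot give a p below 0.333, so that the calls rest on the variance that limma borrows across genes.

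**Figure D1:**
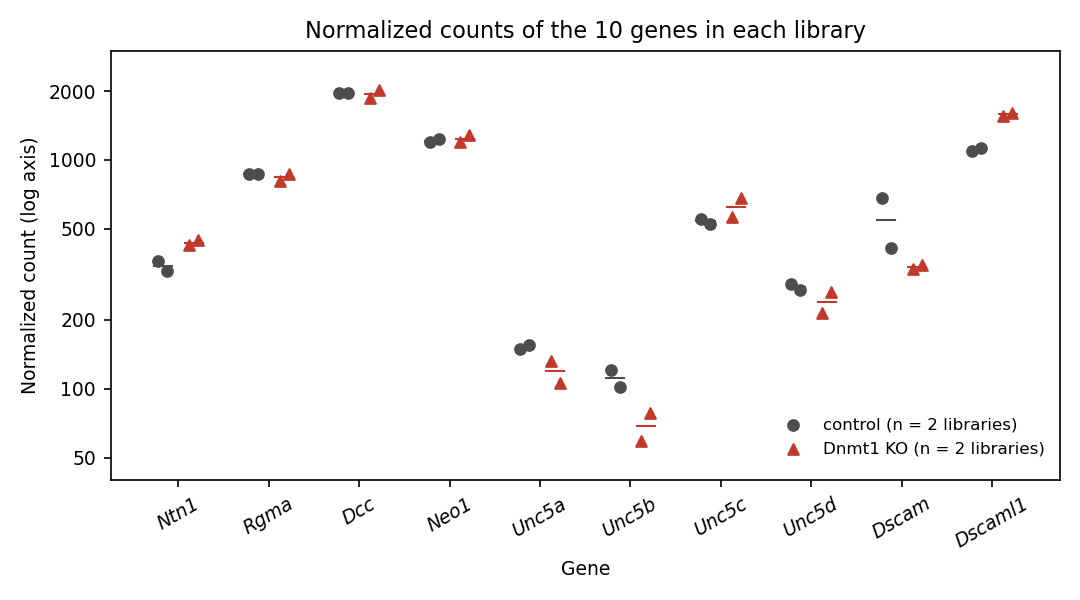
Normalized counts of the 10 genes on a log axis, with grey circles for the 2 control libraries, red triangles for the 2 *Dnmt1* KO libraries and a line at the mean of each genotype. *Dscaml1* lies at 1091 and 1124 in control and at 1551 and 1609 in *Dnmt1* KO, and the 2 control values of *Dscam* lie far apart.

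**Figure D2:**
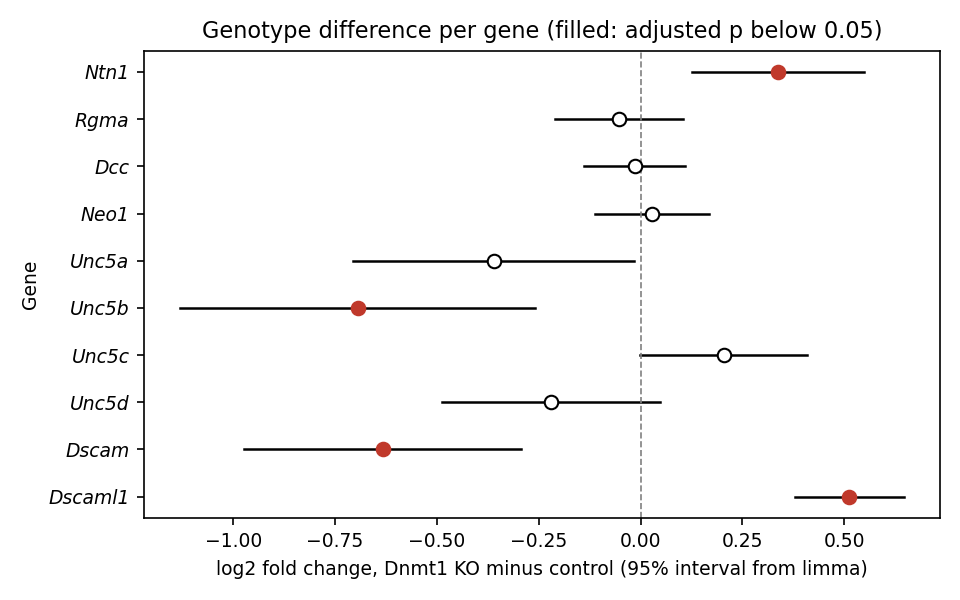
Log2 fold change of each gene, *Dnmt1* KO minus control, with the 95% confidence interval from limma over 2 libraries per genotype and filled points at an adjusted p below 0.05. The intervals of *Dscaml1*, *Ntn1*, *Dscam*, *Unc5b* and *Unc5a* exclude 0, and the first 4 of these were called after adjustment.

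*Dscaml1*, the paralogue of *Dscam* that acts in self-avoidance and spacing of neurons, showed the clearest difference. Its normalized counts were 1091 and 1124 in control and 1551 and 1609 in *Dnmt1* KO libraries. Both *Dnmt1* KO values lay well above both control values, and the libraries of each genotype lay close together. The means were 1107 ± 23.4 and 1580 ± 41.6 (SD, n = 2 each), a 1.43-fold higher level in *Dnmt1* KO (95% confidence interval 1.30 to 1.56), with a log2 fold change of 0.51 (SE 0.063, limma adjusted p = 4.4e-05). The value hardly moved when any single library was left out, with log2 fold changes from 0.49 to 0.54. It was called in 18 of 19 alternative analyses, including the DESeq2 Wald test (adjusted p = 1.92e-07), and missed the threshold only in limma without the variance trend (adjusted p = 0.0843), in which 0 of all genes tested were called.

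*Dscam* moved in the opposite direction, but with unequal control libraries. Its normalized counts were 679 and 412 in control and 333 and 349 in *Dnmt1* KO. The *Dnmt1* KO values lay close together and below both control values, whereas the first control library stood apart from the other 3. The means were 546 ± 189 and 341 ± 10.7 (SD, n = 2 each), and the log2 fold change was -0.63 (SE 0.16, 95% confidence interval -0.97 to -0.29, limma adjusted p = 0.0124). The first control library exceeded the second by 1.65-fold (759 against 404 recovered reads, exact 95% interval 1.46 to 1.86, covering counting error only). Of the 8418 tested genes that averaged 100 normalized counts or more, only 21 (0.249%) had control libraries at least as far apart, 12 of them with the first control library higher. Without this library the log2 fold change was -0.27 and the call was lost (limma adjusted p = 0.152), and without the second control library it was -0.99. The call was also lost with DESeq2 (adjusted p = 0.283). The marker sums of progenitors, excitatory and striatal neurons, blood, endothelium, pericytes and fibroblasts, and microglia given above were also lower in both *Dnmt1* KO libraries, and their part in the *Dscam* difference was not tested.

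The balance of the 2 paralogues was compared within each library. Per kilobase of the transcript with the longest coding sequence, the *Dscaml1* level was 2.08 and 3.53 times that of *Dscam* in the control libraries and 6.03 and 5.99 times in the *Dnmt1* KO libraries. The spread between the control ratios follows the *Dscam* counts, since *Dscaml1* differed little between these libraries. The genes are paralogues and the share of reads that could match both is not known from the table.

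*Ntn1*, which encodes the secreted ligand netrin-1, was detected in the sorted cells at normalized counts of 362 and 326 in control and 424 and 445 in *Dnmt1* KO. Both *Dnmt1* KO values were above both control values, by a margin larger than the gap within either genotype. The means of 344 ± 25.99 and 434 ± 14.53 (SD, n = 2 each) gave a log2 fold change of 0.34 (SE 0.099, 95% confidence interval 0.13 to 0.55, limma adjusted p = 0.0286), or 1.26-fold. The direction was the same in all 19 alternatives and the gene was called in 14 of them. The call was lost without the second control library (log2 fold change 0.26, limma adjusted p = 0.165) and without the second *Dnmt1* KO library (0.30, limma adjusted p = 0.121), and with DESeq2 (adjusted p = 0.158). The interneuron marker sum was higher in the same libraries (35244 and 35925 against 24109 and 24110), and its part in the *Ntn1* and *Dscaml1* differences was not tested.

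*Rgma*, the gene of the neogenin ligand RGMa, was abundant and was not called. Normalized counts were 868 and 869 in control and 805 and 871 in *Dnmt1* KO, and the genotypes overlapped. The log2 fold change was -0.05 (SE 0.073, limma adjusted p = 0.686), with a 95% confidence interval from -0.21 to 0.10. An antisense long noncoding gene that shares 258 exonic bases with *Rgma*, *A730056A06Rik*, had normalized counts of 21.5 and 23.5 in control and 9.86 and 4.37 in *Dnmt1* KO (log2 fold change -1.62, limma adjusted p = 0.0392). The libraries were made with a stranded kit. Whether counting used the strand is not given in the sources used here, so reads of the shared stretch cannot be assigned with certainty.

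The receptors of the DCC family were among the most abundant members and showed little difference. *Dcc*, which mediates attraction to netrin-1, had normalized counts of 1955 and 1967 in control and 1870 and 2017 in *Dnmt1* KO. The control values lay between the *Dnmt1* KO values, and the log2 fold change was -0.01 (SE 0.058, limma adjusted p = 0.906). Its 95% confidence interval in this fit, -0.14 to 0.11, corresponds to a fold between 0.909 and 1.08. With the trend over genomic span and GC content removed, the log2 fold change of *Dcc* was -0.151 (limma adjusted p = 0.0824), outside that interval. *Neo1*, the receptor shared by netrins and RGMs, had normalized counts of 1199 and 1230 in control and 1197 and 1282 in *Dnmt1* KO. Here too the genotypes overlapped, and the log2 fold change was 0.03 (SE 0.066, 95% confidence interval -0.11 to 0.17, limma adjusted p = 0.817). The ratio of *Dcc* to *Neo1* per kilobase was 1.23 and 1.21 in control and 1.18 and 1.19 in *Dnmt1* KO.

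The UNC5 genes, which encode the repulsive netrin receptors, differed in direction. *Unc5b*, best known for its role in blood vessel guidance and also found in neurons, was the least abundant, with normalized counts of 121 and 102 in control and 59.2 and 78.7 in *Dnmt1* KO. The genotypes did not overlap, and the gap between them was of about the size of the gap within each. The means of 111 ± 13.2 and 68.9 ± 13.8 (SD, n = 2 each) corresponded to a log2 fold change of -0.69 (SE 0.20, 95% confidence interval -1.13 to -0.26, limma adjusted p = 0.0286), or 0.618-fold. With only 60 to 135 recovered reads per library, this was the least stable of the 4 calls. It was kept in 12 of 19 alternatives and lost without the first control (log2 fold change -0.57, limma adjusted p = 0.176), the second control (limma adjusted p = 0.0522) or the first *Dnmt1* KO library (-0.49, limma adjusted p = 0.154), and with DESeq2 (adjusted p = 0.163). The summed endothelial markers were lower in the same libraries (192 and 219 against 478 and 503), as were the sums of the other non-interneuron lists given above. The part of these sums in the *Unc5b* difference was not tested.

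*Unc5c*, a receptor of migrating neurons and of commissural axons, was the most abundant UNC5 gene. Its normalized counts were 550 and 527 in control and 562 and 684 in *Dnmt1* KO. The *Dnmt1* KO values lay above the control values, one of them only just. The log2 fold change was 0.20 (SE 0.097, 95% confidence interval -0.0022 to 0.41, limma adjusted p = 0.170) and did not pass the threshold. It did so when the first *Dnmt1* KO library was left out (0.34, limma adjusted p = 0.0229), and the first *Dnmt1* KO library reached only 0.822 of the second (exact 95% interval 0.733 to 0.922).

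*Unc5a*, a neuronal member of the family, had normalized counts of 149 and 155 in control and 132 and 106 in *Dnmt1* KO. All values of *Dnmt1* KO lay below those of control, and the log2 fold change was -0.36 (SE 0.16, 95% confidence interval -0.71 to -0.017). The unadjusted limma p was 0.0411 and the adjusted p 0.146, so that *Unc5a* was not called. *Unc5d*, known from migrating multipolar cells and upper-layer neurons of the cortex, had normalized counts of 286 and 270 in control and 215 and 264 in *Dnmt1* KO. The second *Dnmt1* KO library came close to the lower control value, and the log2 fold change of -0.22 did not pass the threshold (SE 0.13, 95% confidence interval -0.49 to 0.047, limma adjusted p = 0.261). *Svet1*, an unconfirmed transcript on the same strand within the span of *Unc5d*, had normalized counts of 27.7 and 29.6 in control and 48.3 and 57.9 in *Dnmt1* KO (log2 fold change 0.86, limma adjusted p = 0.0447), opposite in sign to *Unc5d*. It shares no exonic base with *Unc5d* in the annotation.

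**Figure D3:**
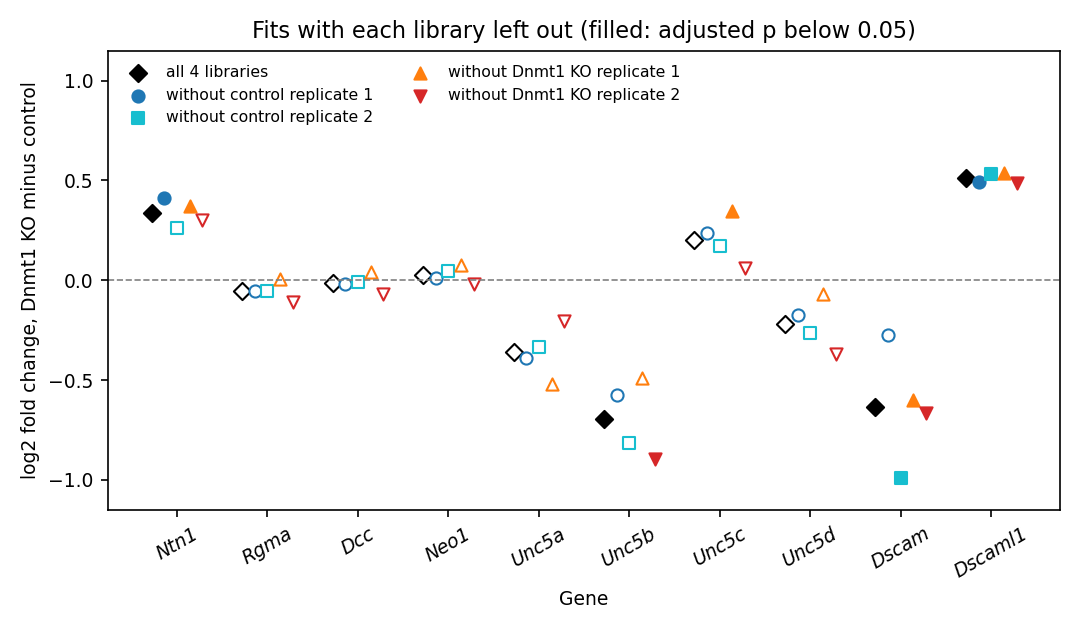
Log2 fold change of each gene, *Dnmt1* KO minus control, with all 4 libraries and after omission of each single library, with marks filled where the limma adjusted p was below 0.05. *Dscaml1* stays between 0.49 and 0.54, whereas *Dscam* ranges from -0.99 to -0.27.

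The UNC5 genes were compared with each other and with the DCC family per kilobase within each library. *Unc5c* made up 39.94% and 39.96% of the summed UNC5 level in control and 47.8% and 51.7% in *Dnmt1* KO, whereas *Unc5b* made up 14.4% and 12.7% in control and 8.27% and 9.76% in *Dnmt1* KO. The shares of the genotypes did not overlap for either gene. Both shares are parts of the same sum and are not independent. In normalized counts, such separation was found for 28.4% of all genes tested with *Dnmt1* KO higher and 29.0% with *Dnmt1* KO lower. The summed UNC5 level was 0.415 and 0.392 of the summed *Dcc* and *Neo1* level in control and 0.363 and 0.381 in *Dnmt1* KO. These ratios were close to each other, with both *Dnmt1* KO values below both control values. They are given as descriptions without a test.

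Levels were ordered by normalized counts per kilobase of the transcript with the longest coding sequence (mean ± SD, n = 2 each). In control cells the order was *Rgma* (239 ± 0.15), *Dcc* (189 ± 0.82), *Dscaml1* (161 ± 3.41), *Neo1* (155 ± 2.81), *Dscam* (61.1 ± 21.1), *Ntn1* (56.3 ± 4.26), *Unc5c* (55.5 ± 1.72), *Unc5a* (34.4 ± 0.92), *Unc5d* (30.1 ± 1.29) and *Unc5b* (18.9 ± 2.24). *Dscam* and *Ntn1* overlapped in their library values, as did *Ntn1* and *Unc5c*, whereas all other neighbours were apart. The ligand *Rgma* and both DCC family receptors thus stood above every UNC5 gene. In *Dnmt1* KO, *Dscaml1* (229 ± 6.04) came second and overlapped *Rgma* (231 ± 12.8), ahead of *Dcc* (188 ± 10.0) and *Neo1* (158 ± 7.60). *Ntn1* (71.1 ± 2.38) and *Unc5c* (64.2 ± 8.87), which overlapped, followed and stood above *Dscam* (38.2 ± 1.199). *Unc5a* (26.9 ± 4.18) and *Unc5d* (26 ± 3.79) overlapped, and *Unc5b* (11.7 ± 2.33) was again the lowest. Using the longest transcript instead changed the length of *Unc5a* alone (33.6 and 26.3 per kilobase) and left the order as it was.

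**Figure D4:**
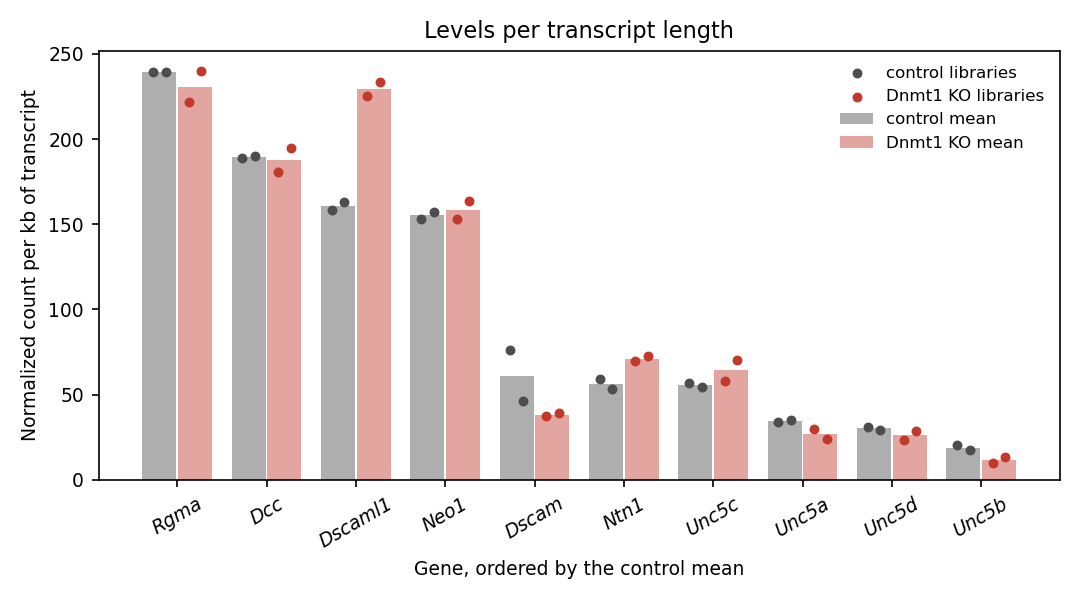
Normalized counts per kilobase of transcript for the 10 genes, ordered by the control mean, with bars for the mean of each genotype and points for its 2 libraries. *Rgma*, *Dcc*, *Dscaml1* and *Neo1* lie at 153 or above in every library and the UNC5 genes at 70.5 or below.

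Other genes of the pathway were taken from 4 lists that do not include the members, 59 genes in all, of which 54 passed the filter. Of these, 11 were higher and 3 lower in *Dnmt1* KO, and 40 did not pass the threshold. Their median log2 fold change was 0.012. Against the shares over all genes tested, 8.30% and 8.99%, more than these shares were called higher and fewer lower, which was not tested. Among protein-coding genes with a span of at least 100 kb, 18.5% were called higher and 10.2% lower. The spans of the pathway genes were not taken into account.

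Among 14 further ligands and partners of these receptors, 12 were tested, and 3 were higher and 1 lower. *Draxin*, a secreted inhibitor that binds DCC and netrin, had normalized counts of 955 and 1067 in control and 1360 and 1361 in *Dnmt1* KO (log2 fold change 0.43, SE 0.070, limma adjusted p = 0.000553). *Flrt2*, an adhesion molecule that binds UNC5 receptors and repels UNC5D-expressing neurons, had 495 and 455 against 652 and 581 (0.37, limma adjusted p = 0.00982). Its call was lost without the second control library or the first *Dnmt1* KO library (limma adjusted p = 0.0623 and 0.0843). *Rgmb*, a relative of *Rgma* that also binds neogenin, had 891 and 767 against 1003 and 1088 (0.34, limma adjusted p = 0.00982), which was lost without the second control library (limma adjusted p = 0.0941). *Ntng2*, a membrane-anchored netrin that binds NGL proteins and not DCC, was the gene lower in *Dnmt1* KO, with 102 and 85.8 in control and 55.2 and 53.5 in *Dnmt1* KO (-0.77, limma adjusted p = 0.0190). It was not called without the first control library (limma adjusted p = 0.147) or with DESeq2 (adjusted p = 0.131). *Ntn5* was at 0 in every library, and *Hjv* lay below the filter.

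Cytoplasmic effectors formed the largest list, with 27 genes tested, 6 higher and 2 lower. *Trim67*, an E3 ligase that binds DCC, had normalized counts of 1179 and 1181 in control and 1604 and 1673 in *Dnmt1* KO (log2 fold change 0.47, SE 0.061, limma adjusted p = 8.07e-05). *Arhgef12*, a RhoA exchange factor, had 2375 and 2237 against 3075 and 3226 (0.45, limma adjusted p = 3.68e-05), and *Appl1*, an adaptor that binds DCC, had 624 and 664 against 825 and 802 (0.34, limma adjusted p = 0.00652). With the trend over transcript length and GC content removed, the log2 fold change of *Appl1* was 0.20 and its call was lost (limma adjusted p = 0.0888). The other 3 were *Dapk1*, *Trio* and *Fyn*, with log2 fold changes from 0.20 to 0.30. Both lower genes act on the cytoskeleton downstream of DCC. *Dock1*, a Rac exchange factor, fell from 227 and 232 to 99.6 and 78.7 (-1.36, SE 0.16, limma adjusted p = 2.72e-05), and *Myo10*, a myosin that carries DCC into filopodia, fell from 682 and 684 to 378 and 369 (-0.87, SE 0.085, limma adjusted p = 5.62e-06). The calls of *Trim67*, *Arhgef12*, *Dock1* and *Myo10* held whichever library was left out. The lower progenitor and endothelial marker sums (8930 and 9103 against 14283 and 14321, and 192 and 219 against 478 and 503) moved with *Dock1* and *Myo10*. The other lower marker sums given above did so too, and the part of all these sums was not tested.

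The 7 proteases and protease subunits that cleave DCC and neogenin, the ADAM sheddases and gamma-secretase, gave 0 calls with limma, edgeR and DESeq2. At an unadjusted p below 0.05, 1 gene (*Adam17*, chosen after its values were seen) passed with limma and with edgeR and 0 with DESeq2. Their log2 fold changes lay between -0.44 and 0.16. In the BMP arm of RGM and neogenin signalling, 8 of 11 genes were tested, and 2 receptor genes were higher. *Bmpr2* had 1371 and 1352 in control and 1766 and 1694 in *Dnmt1* KO (log2 fold change 0.34, limma adjusted p = 0.000933). With the trend over transcript length and GC content removed, the log2 fold change of *Bmpr2* was 0.15 and its call was lost (limma adjusted p = 0.0968). *Acvr2a* had 500.2 and 510.4 against 631 and 606 (0.29, limma adjusted p = 0.0238). *Acvr2a* was called in 11 of 19 alternatives. *Bmp2*, *Bmp4* and *Smad9* lay below the filter.

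**Figure D5:**
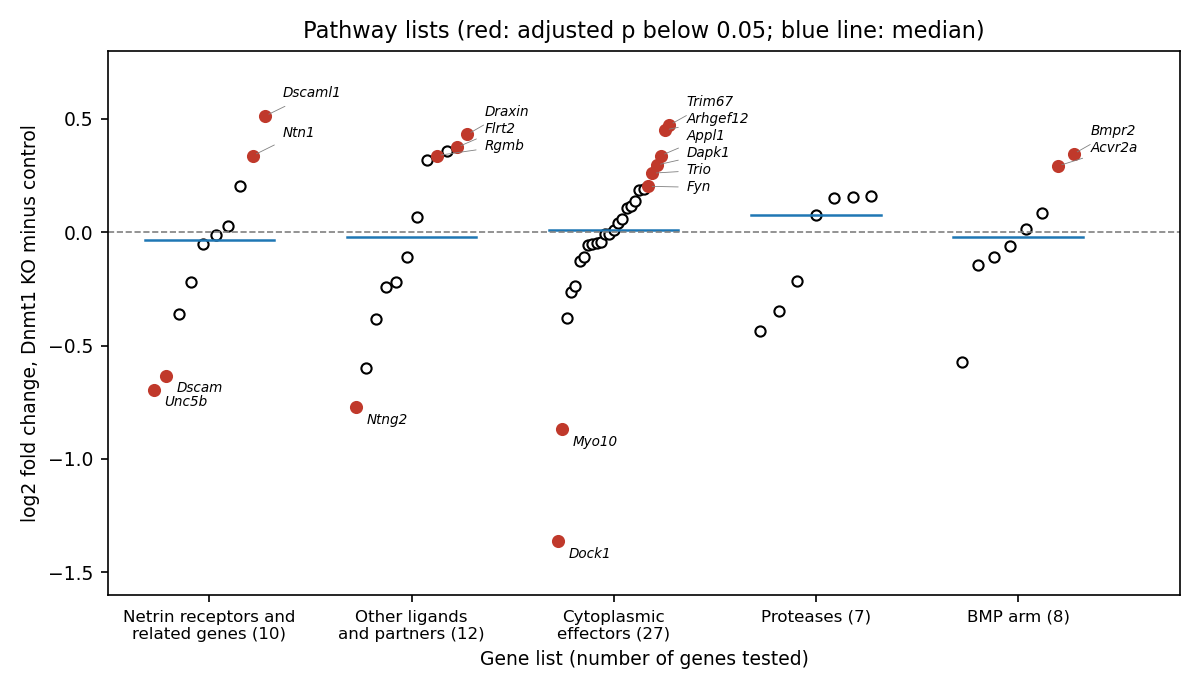
Log2 fold change, *Dnmt1* KO minus control, of the 10 members and of the tested genes of the 4 pathway lists, sorted within each list. Filled red points mark genes with a limma adjusted p below 0.05 and blue lines the medians, which lie between -0.033 and 0.074.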

How the data were processed

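Total RNA of the sorted cells was sequenced by the authors from rRNA-depleted libraries, trimmed with Trim Galore, aligned to GRCm39 with STAR and quantified with Salmon, and the deposited signal is a gene count that the authors normalized with DESeq2. All 89965 values above 0 (100%) are whole reads divided by 1 size factor per library, to within 0.0001 of a read. No sample column was left unused.

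Genes averaging 10 or more normalized counts were tested on log2(value + 1) by limma-trend (limma 3.58.1, R 4.3.3), with genotype as the only term, and called at a Benjamini-Hochberg adjusted p below 0.05. Groups followed the sample labels. Positions and lengths came from GENCODE for GRCm39, which held 14285 of 14323 tested genes. The RefSeq promoter table is on another build and gave no coordinates.

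The members and the gene lists were chosen with earlier results of these data known. Named are all members, the called genes of each pathway list, up to 3 per direction, and *Dnmt1*. *Dapk1*, *Trio*, *Fyn* and the genes overlapping members were named after their values were seen.

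Alternatives were pseudocounts of 0.5 and 10, minimum means of 1 and 50 or no filter, TMM factors, quantile normalization, limma without variance trend, edgeR 4.0.16 (quasi-likelihood), limma-voom and DESeq2 1.42.0 (Wald) on recovered reads, removal of length and GC trends, the replicate number as a block, and omission of single libraries, which assumes that a lone library varies like the others. Removal of genomic span and GC trends was chosen after the data were seen. The scripts were tested on simulated counts.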

Additional observations from a re-analysis of the deposited data

How the results depend on the processing

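Over 19 alternatives the 10 members gave 190 values, of which 166 kept their direction and side of the threshold, 16 lost the call, 1 gained it and 7 changed sign, all of genes that were not called. The sign changes were *Dcc* without *Dnmt1* KO replicate 1 (log2 fold change 0.040, range over the omitted libraries -0.069 to 0.040), *Neo1* with quantile normalization (-0.028) and without *Dnmt1* KO replicate 2 (-0.020, range -0.020 to 0.077), and *Rgma* with the length and GC trend removed, with or without the replicate block (0.016 in both), with the span and GC trend removed (0.041) and without *Dnmt1* KO replicate 1 (0.0040, range -0.11 to 0.0040). Limma without the variance trend called 0 genes higher and 0 lower (3339 genes at an unadjusted p below 0.05, smallest adjusted p 0.0592), hence 0 and 0 members (2 and 1 at an unadjusted p below 0.05) and 0 and 0 other pathway genes (11 and 5). DESeq2 called 640 genes higher and 687 lower, and 1 member higher and 0 lower (2 and 1 unadjusted), beside 2 and 2 with limma, and 9 other pathway genes higher and 2 lower, beside 11 and 3. Without a filter, 1 member was higher (*Ntn1* lost, adjusted p = 0.054 with limma). With quantile normalization, and with the span and GC trend removed, 1 was lower (*Unc5b* lost, limma adjusted p = 0.0574 and 0.052). Other pathway genes lower numbered 5 with quantile normalization. With 1 library left out, 889 to 975 genes were higher and 827 to 1256 lower, 1 to 3 members higher and 0 to 2 lower, and 8 to 9 other pathway genes higher and 2 to 4 lower. The split of all calls was 48.0% higher, 57.4% with the length and GC trend removed and 59.5% with the span and GC trend removed.

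No label ties the replicate numbers to a litter or day, so whether they pair the samples is not known. The correlation of the 2 genotypes' replicate differences was -0.085, which cannot settle this, and 2 pairs allow no further check. With the replicate block, 1402 genes were higher and 1555 lower, 2 and 2 members were called, and 6 other pathway genes were lower in place of 3. Depth limits *Unc5b*, with 60 to 135 reads per library, and any difference of *Unc5a* and *Unc5d* smaller than their intervals.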
